A study of Mus musculus with 15 samples.

Results

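The transcriptome described here is that of the thoracic aorta of vehicle-treated mice, and it rests on 5 RNA-seq libraries of 15 in all, each from its own animal. The members are the libraries that the labels place in the vehicle group, vehicle 1 to vehicle 5, and no measured value chose them. The mice were wild-type C57BL/6 males of 10 to 12 weeks, kept in 12 h of light and 12 h of darkness, and polyadenylated RNA was sequenced. In the other groups, 5 mice received celecoxib at 30 mg/kg and 5 received rofecoxib at 10 mg/kg, which are inhibitors selective for cyclooxygenase-2, while the vehicle mice received the solvent PEG-400. All groups share the gavage of 100 uL and the collection of the aorta 6 h later, at Zeitgeber hour 11, which is close to the end of the light phase. No group was left without gavage, so the values describe aortas after handling and solvent, at 1 time of day and in 1 sex and strain.

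The aorta is an elastic artery. Its media is built of smooth muscle cells that make elastin and collagen and set vascular tone through actomyosin, receptors and ion channels, its inner face is lined by endothelium, and its adventitia holds fibroblasts, nerve endings and, outside it, fat. Whole vessel RNA mixes all of these, and in bulk samples fewer cells of a type and less RNA per cell cannot be told apart.

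Each vehicle library held between 30940962 and 30962307 counts. Levels are given as CPM, the counts of a gene scaled to a common library size, on TMM-scaled library sizes, and, where genes are set against each other, as RPKM, which is CPM per kilobase of exon. Values after ± are SDs over the 5 vehicle libraries. A gene was taken as expressed at 1 CPM or more in at least 3 of the 5 libraries, which held for 13051 of 37681 rows (34.6%), among them 12358 protein-coding genes. Of the expressed genes, 3613 had a mean under 10 CPM, 7417 lay between 10 and 100, 1921 between 100 and 1000, and 100 at 1000 CPM or more. All 37 mitochondrial rows held 0 counts, so transcripts of the mitochondrial genome could not be described.

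Markers of the vessel wall bore out the labelled tissue. All 12 smooth muscle markers and all 12 endothelial markers were expressed. The smooth muscle list summed to 20465, 23315, 16507, 19179 and 20269.6 RPKM in vehicle 1 to 5, and the endothelial list to 190.3, 178, 209, 226 and 198 RPKM. The smooth muscle sum was lowest in vehicle 3, and the endothelial sum was highest in vehicle 4. Pecam1, an adhesion molecule of endothelial junctions, led the endothelial list by CPM at 54.2 ± 9.81 RPKM, ahead of Cdh5, the cadherin of those junctions, at 21.3 ± 2.21 RPKM. Of the fibroblast list, 12 of 12 members were expressed, and so were 8 of 8 members of the pericyte list, which shares genes with smooth muscle. No marker of B cells (of 12), T cells (of 12), neutrophils (of 10), stratified epithelium (of 10) or lung epithelium (of 8) reached the expression rule. Casq1, a calcium-binding protein known from skeletal muscle, held 166, 224, 83.5, 135 and 104 CPM in vehicle 1 to 5, while Acta1, the skeletal muscle actin, held 2.76, 3.55, 2.02, 2.76 and 1.51 CPM and Myog had 0 counts. Casq1 was lowest in vehicle 3. In the lung list, Nkx2-1 and Scgb3a2 had 0 counts in every vehicle library.

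Contractile and matrix genes were both among the most abundant. Of the 20 genes of highest mean CPM, 9 were in the matrix lists and 4 in the smooth muscle list, and of the 20 highest per kilobase 5 were in the matrix lists and 4 in the smooth muscle list. Acta2, the smooth muscle actin (chr19:34315378-34330028 in mm9), held 19425, 23227, 14131, 19004 and 19000.5 CPM in vehicle 1 to 5, the highest mean both in CPM and per kilobase. Its level was lowest in vehicle 3 and highest in vehicle 2, a 1.64-fold range. Per kilobase it stood at 8633 ± 1471 RPKM, against 4180.3 ± 397 RPKM for Tagln, which encodes the actin-binding protein transgelin, and 3594 ± 380.2 RPKM for Myl9, the regulatory light chain that is phosphorylated when smooth muscle contracts. Myh11, the smooth muscle myosin heavy chain, averaged 1449.7 ± 122 RPKM and Flna, an actin cross-linker, 1459 ± 103 RPKM, and these did not differ beyond their spread. Cytoskeletal genes found in many cell types also ranked high, with 1995 ± 258 RPKM for Tmsb4x, an actin monomer binder, 1685 ± 141 RPKM for Dstn, an actin-depolymerising factor, and 1411 ± 140.4 RPKM for the intermediate filament gene Vim. The 20 genes of highest mean CPM took 12.3% of all vehicle counts, and 12 of them were also among the 20 highest per kilobase.

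**Figure D1:**
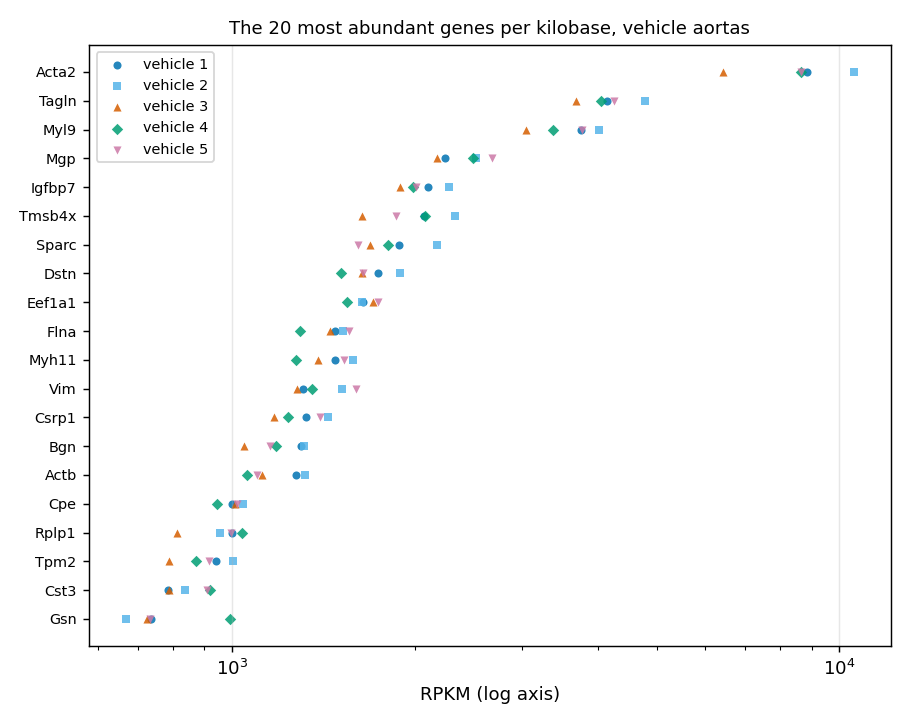
RPKM (log axis) of the 20 genes with the highest mean per kilobase, 1 row a gene and 1 symbol for each of the 5 vehicle libraries. Acta2 stands alone at the top at 8633 ± 1471 RPKM (mean ± SD), and the symbols of most genes lie close together.

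Genes of the 3 families were counted next. Matrix genes together took 10.0% of the vehicle counts, receptors 2.08% and channels 0.821%. Of 268 listed matrix genes 213 were expressed (79.5%), of 304 receptor genes 191 (62.8%) and of 266 channel genes 115 (43.2%). Among all rows the share was 34.6%. Those rows include genes that are not protein-coding, and 15517 of them had no counts in any vehicle library. Of the 13051 expressed genes, 12358 were protein-coding. The expressed share of protein-coding rows alone was not computed, so 34.6% is not a matched background for these families.

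Elastin and the fibrillar collagens differed between vehicle aortas. Eln, the elastin gene (chr5:135179449-135223313 in mm9), held 4204, 5476, 3008, 2657 and 2186 CPM in vehicle 1 to 5. It was highest in vehicle 2 and lowest in vehicle 5, a 2.51-fold range with an SD of 0.53 on the log2 scale. Col3a1, the type III collagen chain, had 4551, 5236, 3877, 4035 and 3141 CPM in the same libraries. Col1a2, a chain of type I collagen, had 4396, 4770.0, 3543, 4042 and 3417 CPM. Like Eln, both were highest in vehicle 2 and lowest in vehicle 5. Per kilobase, Col18a1, the basement membrane collagen whose cleavage gives endostatin, led the collagens at 487 ± 49.9 RPKM, with Col3a1 at 425 ± 79.7 RPKM, Col1a2 at 325 ± 45.8 RPKM, Col1a1 at 301 ± 54.9 RPKM and the type IV chain Col4a1 at 259 ± 17 RPKM. The first 2 of these overlapped in their spread. The order rests on lengths that join all annotated exons, 7021 bases for Col18a1, 9816 for Col3a1 and 12426 for Col1a2. By CPM, Col18a1 was below both, at a mean of 3422 against 4168 for Col3a1 and 4034 for Col1a2. The type IV collagen chain varied less, with an SD of 0.10 for Col4a1 against 0.27 for Col3a1 on the log2 scale. In all, 35 of 43 collagens were expressed.

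Around elastin, 25 of 27 elastic fibre genes were expressed. Mfap4, a microfibril-associated protein, overlapped with Eln per kilobase, at 422 ± 37.9 RPKM against 433 ± 164 RPKM. Ltbp4, which tethers latent TGF-beta to the matrix, followed at 224 ± 21.6 RPKM, ahead of Ltbp1 at 100.5 ± 12.4 RPKM and Fbln5, a fibulin needed to assemble elastic fibres, at 97 ± 16 RPKM. Of the enzymes that cross-link or fold matrix proteins 20 of 21 were expressed, led by Serpinh1, the collagen chaperone, at 396 ± 82.2 RPKM, by P4hb at 232 ± 26.8 RPKM and by the transglutaminase gene Tgm2 at 208 ± 3.62 RPKM. Tgm2 was among the steadier of them, at 932, 977, 960.0, 964 and 963 CPM in vehicle 1 to 5. Its 5 libraries differed by 1.05-fold.

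**Figure D2:**
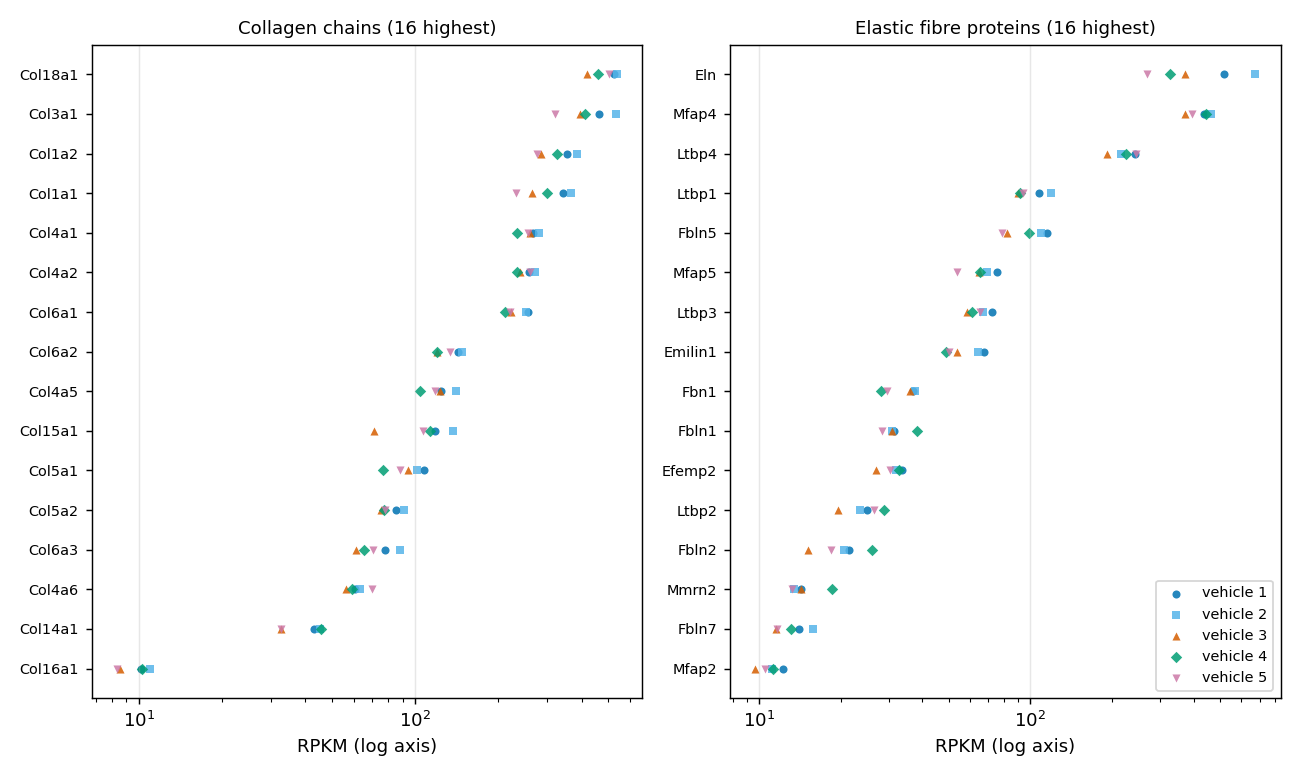
RPKM (log axis) of the 16 highest collagen chains (left) and the 16 highest elastic fibre genes (right) in each of the 5 vehicle libraries. Eln spreads most widely, with vehicle 2 at the right and vehicle 5 at the left.

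Some single glycoproteins and proteoglycans were above the leading collagens per kilobase. Mgp, the inhibitor of vascular calcification, reached 2421 ± 209 RPKM, Igfbp7, a secreted binder of insulin-like growth factors, 2053 ± 146 RPKM, and Sparc, a collagen-binding matricellular protein, 1833 ± 216 RPKM. Fn1, fibronectin, was lower per kilobase, at 409 ± 26.6 RPKM. Bgn, the proteoglycan biglycan, averaged 1199 ± 111 RPKM, far above the other small leucine-rich proteoglycans of highest CPM, Ogn at 443 ± 54.3 and Dcn at 165 ± 24.8 RPKM. Lamb2 was the laminin chain with the highest CPM, at 233 ± 18.8 RPKM. Of the listed matricellular genes 46 of 54 were expressed. Matrix metalloproteinases were lower, with 11 of 23 expressed and 32.4 ± 3.59, 44.6 ± 5.33 and 45.7 ± 5.7 RPKM for Mmp17, Mmp2 and Mmp23. Timp2, which inhibits them, stood at 269 ± 27.2 RPKM, and the inhibitors of other proteases Cst3, cystatin C, and Serpine2 at 847 ± 64.9 and 154 ± 19.5 RPKM. Among the ADAMTS genes (18 of 24 expressed), Adamts1 led at 85.6 ± 17.6 RPKM.

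Among the receptors of peptide hormones and amines, the natriuretic peptide receptor was highest per kilobase. Npr1, the guanylyl cyclase that binds atrial natriuretic peptide, held 483, 473, 508, 468 and 538 CPM in vehicle 1 to 5, with a narrow range. Npr1 stood at 103 ± 6.06 RPKM and Npr2, which binds C-type natriuretic peptide, at 41.2 ± 1.88 RPKM. Of the adrenergic receptors 8 of 9 were expressed. Adra1d, an alpha-1 receptor that mediates constriction to noradrenaline, was the highest of them at 27.2 ± 2.32 RPKM, against 6.44 ± 2.71 RPKM for Adrb3 and 1.02 ± 0.50 RPKM for Adra1a. Adrb3, known from fat, was more uneven, at 15.5, 15, 31.3, 32.2 and 14.7 CPM in vehicle 1 to 5. It was high in vehicle 3 and 4.

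Purinergic, thromboxane and thrombin receptors followed. P2rx1, an ATP-gated cation channel of smooth muscle, reached 49.8 ± 10.1 RPKM and P2rx5 21.5 ± 3.92 RPKM, while the P2Y receptors were led by P2ry6 at 10.6 ± 1.33 RPKM. Tbxa2r, the receptor of thromboxane, held 41.8, 42, 33.3, 33.8 and 37.5 CPM in vehicle 1 to 5. Ptger1, a receptor of prostaglandin E2, held 51.8, 53, 54.9, 56 and 64.1 CPM in these libraries, and Ptger3 was lower, at 1.94 ± 0.519 RPKM. Tbxa2r and Ptger1 varied little between the libraries. In all, 6 of 9 prostanoid receptors were expressed. F2r, the thrombin receptor, averaged 27.1 ± 1.27 RPKM, with 15.2 ± 3.95 RPKM for S1pr1 and 12.9 ± 2.25 RPKM for S1pr3, receptors of sphingosine 1-phosphate. The endothelin receptors were low, 3.67 ± 0.492 RPKM for Ednra and 2.69 ± 0.653 RPKM for Ednrb, and so was Agtr1b, an angiotensin receptor, at 1.85 ± 0.492 RPKM. Of the angiotensin and bradykinin list, 5 of 8 members were expressed. This list summed to 16.3 ± 1.55 RPKM, so Agtr1b was a minor part of it.

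No muscarinic receptor (of 5) and no histamine receptor (of 4) passed the expression rule, although both act in vascular physiology. Chrm3, the muscarinic receptor known from endothelium, held 0.418, 0.362, 0.342, 0.603 and 0.493 CPM in vehicle 1 to 5, and was named after its values were seen. Its level within the endothelium was not measured by whole-vessel RNA. Of the serotonin receptors 2 of 14 were expressed, namely Htr1b and Htr2a at 1.04 ± 0.274 and 0.839 ± 0.236 RPKM. The serotonin receptor list summed to 1.87, 3.07, 2.71, 15.1 and 3.46 RPKM in vehicle 1 to 5, highest in vehicle 4. Htr3a and Htr3b, subunits of the serotonin-gated cation channel that were named after their values were seen, held 0, 0.527, 0.902, 20.9 and 1.97 and 0, 0, 0.0311, 6.48 and 0.755 CPM in vehicle 1 to 5, and both were high in vehicle 4 alone, where the sympathetic neuron list was highest. Among nuclear receptors 33 of 45 were expressed, with Nr1d2 at 39.4 ± 5.28, Thra, a thyroid hormone receptor, at 41.4 ± 4.88 and Nr1d1 at 53.7 ± 23 RPKM.

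The integrins and Axl were the highest receptors per kilobase. Itgb1, the beta 1 integrin chain, averaged 638 ± 20.4 RPKM and its partner Itga8, an integrin chain of smooth muscle, 522 ± 49.9 RPKM. Itgb1 held 2531, 2679, 2683, 2504 and 2625 CPM in vehicle 1 to 5. Axl, the receptor of Gas6, was at 149.9 ± 9.04 RPKM. Pdgfrb, the PDGF receptor of mural cells, was at 82.5 ± 15.3 RPKM, and its range was wider, with 527, 479.7, 525, 343 and 386 CPM in vehicle 1 to 5. It was lower in vehicle 4 and 5 than in vehicle 1 to 3. Of the TGF-beta and BMP receptors 12 of 13 were expressed, led by Bmpr1a at 47.9 ± 9.49 and Tgfbr2 at 30.0 ± 1.47 RPKM. Npy1r, the neuropeptide Y receptor that mediates constriction, had 88, 134, 94.5, 206 and 195 CPM and was higher in vehicle 4 and 5 than in the other 3 libraries.

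Channels of the smooth muscle membrane were expressed at moderate levels. Kcnmb1, the beta subunit that sets the calcium sensitivity of the large-conductance potassium channel, held 346, 363, 305, 308 and 317 CPM in vehicle 1 to 5, with no library apart. It reached 78.2 ± 6.06 RPKM, while Kcnma1, the pore of that channel, stood at 1.52 ± 0.339 RPKM. By CPM, Kcnma1 held 35.8 in vehicle 3 and 21.6 to 25.5 in the other libraries. Part of the gap per kilobase thus rests on exonic lengths that join all annotated exons. Abcc9, the sulfonylurea receptor of vascular K-ATP channels, was at 41.7 ± 7.74 RPKM and Kcnj8, its pore, at 22.6 ± 5.85 RPKM. Kcnh2 led the voltage-gated potassium channels at 40.9 ± 8.07 RPKM (13 of 40 expressed), and Kcnab1, an accessory subunit, was at 24.7 ± 2.55 RPKM. Kcnk3, a two-pore channel, was uneven, with 50.5, 24.2, 33.7, 50.4 and 76 CPM in vehicle 1 to 5. It was highest in vehicle 5 and lowest in vehicle 2. Of the voltage-gated calcium channel genes 13 of 26 were expressed, with Cacna2d1 at 13.9 ± 1.44 RPKM and Cacna1c, the pore of the L-type channel, at 3.03 ± 0.308 RPKM.

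Intracellular calcium was represented by Itpr1, the IP3 receptor, at 17 ± 1.54 RPKM and Ryr2, a ryanodine receptor, at 2.73 ± 0.252 RPKM. Pkd1, polycystin 1, listed with the TRP channels, was at 73.2 ± 12.4 RPKM and Pkd2, polycystin 2, at 18 ± 1.0 RPKM. Clic4, a chloride intracellular channel protein, led the chloride list at 234 ± 10.6 RPKM, and Ano1, the calcium-activated chloride channel, was at 31 ± 6.87 RPKM. Aqp1, a water channel of endothelium, was high at 184 ± 26 RPKM, with 511, 496, 370.1, 553 and 487 CPM in vehicle 1 to 5. It was lowest in vehicle 3. Gja1, connexin 43, stood at 19.8 ± 3.64 RPKM. Of the cyclic nucleotide-gated and HCN list 1 of 10 members was expressed.

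**Figure D3:**
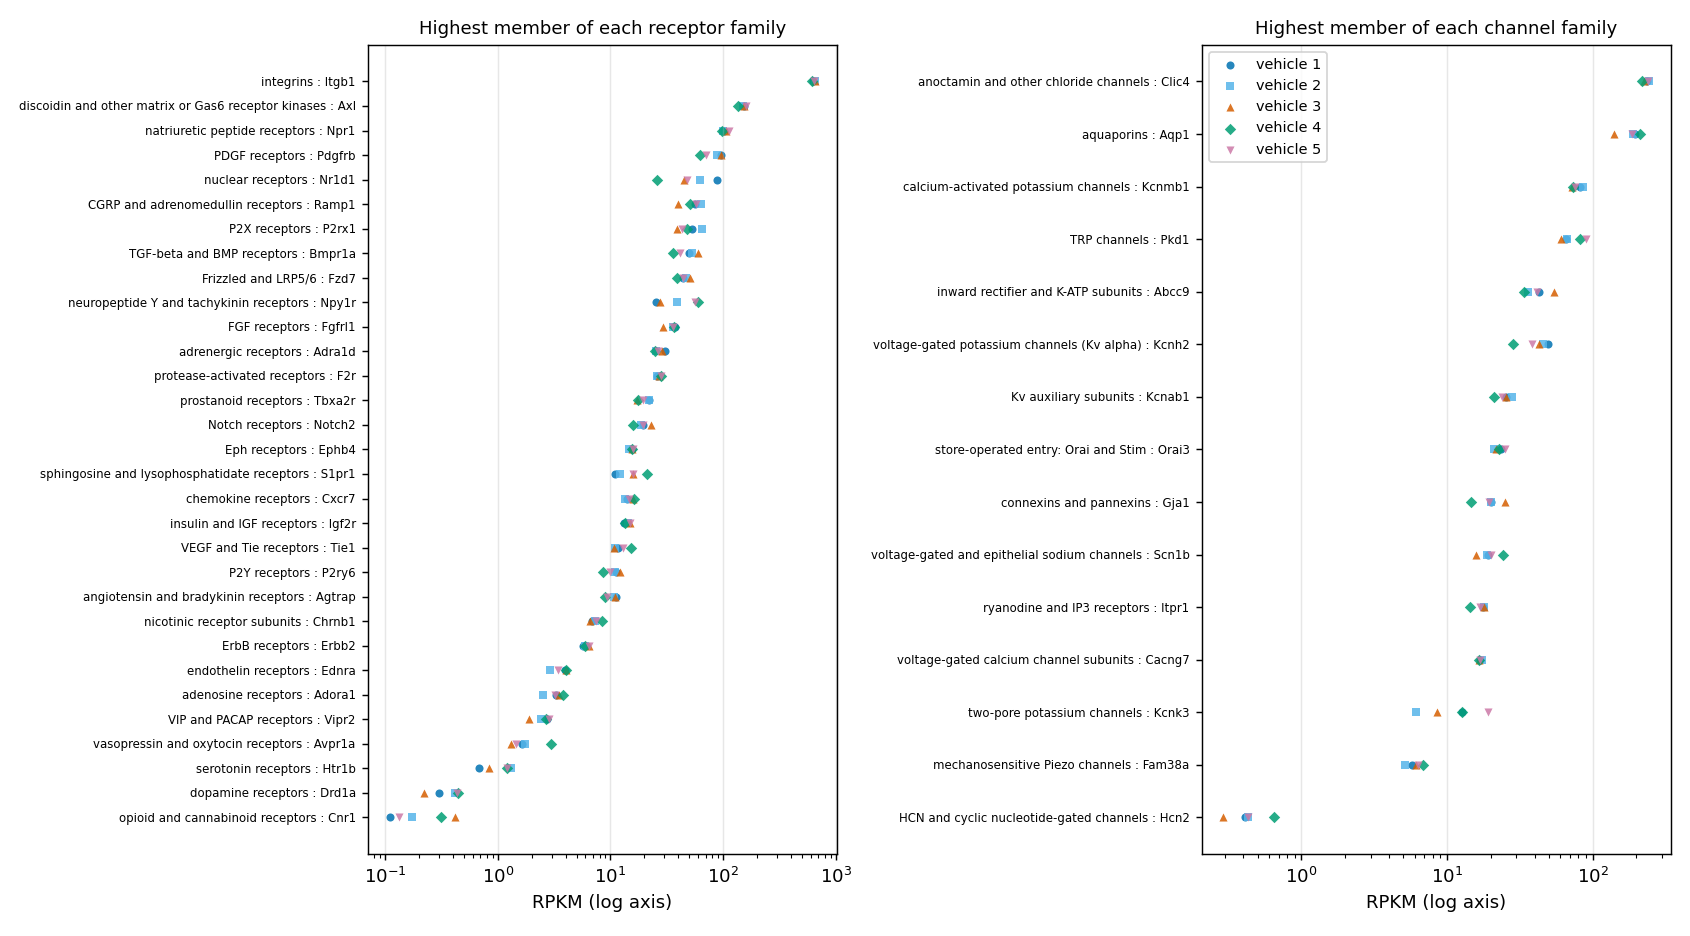
RPKM (log axis) in each of the 5 vehicle libraries of the highest expressed member per kilobase in every receptor family (left) and channel family (right) with one, families ordered by level. Itgb1 leads the receptors and Clic4 the channels.

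Transcripts of both cyclooxygenases, of which the drugs in the other groups selectively inhibit cyclooxygenase-2, were measurable in vehicle aortas. Ptgs2, which encodes cyclooxygenase-2, held 18, 32.3, 27.7, 26.8 and 23.3 CPM in vehicle 1 to 5, and Ptgs1, which encodes cyclooxygenase-1, 14.3, 13, 12, 21.5 and 15.2 CPM; both were named after their values were seen. Per kilobase they stood at 5.6 ± 1.17 and 3.91 ± 0.962 RPKM and overlapped in their spread. Ptgis, the prostacyclin synthase, was far higher at 409 ± 43 RPKM.

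At Zeitgeber hour 11, 19 of 19 circadian clock genes were expressed. Tef, Per2 and Nr1d2, the 3 of highest CPM, averaged 458 ± 59.9, 276 ± 64.3 and 213 ± 28.6 CPM. Nr1d1, the repressor REV-ERB alpha, held 269, 192, 138, 79.4 and 148 CPM in vehicle 1 to 5. It was highest in vehicle 1 and lowest in vehicle 4, a 3.39-fold range. Dbp, an output transcription factor named after its values were seen, held 277, 195, 105, 75.3 and 131 CPM. The 5 libraries came in the same order for Dbp as for Nr1d1. Arntl, the positive clock factor BMAL1, also named after its values were seen, was low at 2.09, 1.65, 10.7, 3.27 and 5.09 CPM and highest in vehicle 3.

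Most genes differed little between vehicle aortas. Over the 9438 genes with a mean of at least 10 CPM, the median SD of log2 CPM was 0.122 in vehicle, with quartiles of 0.0839 and 0.183. Within celecoxib libraries it was 0.139, and within rofecoxib libraries 0.0892. In vehicle, 247 genes had an SD over 0.5 and 27 an SD over 1 (0.286%), a choice made on these values, so no test applies to it. The first principal component of the 5 libraries carried 48.9% of the variance and set vehicle 4 and 5 apart from vehicle 1 to 3, and the second carried 26.3% and set vehicle 3 apart.

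**Figure D4:**
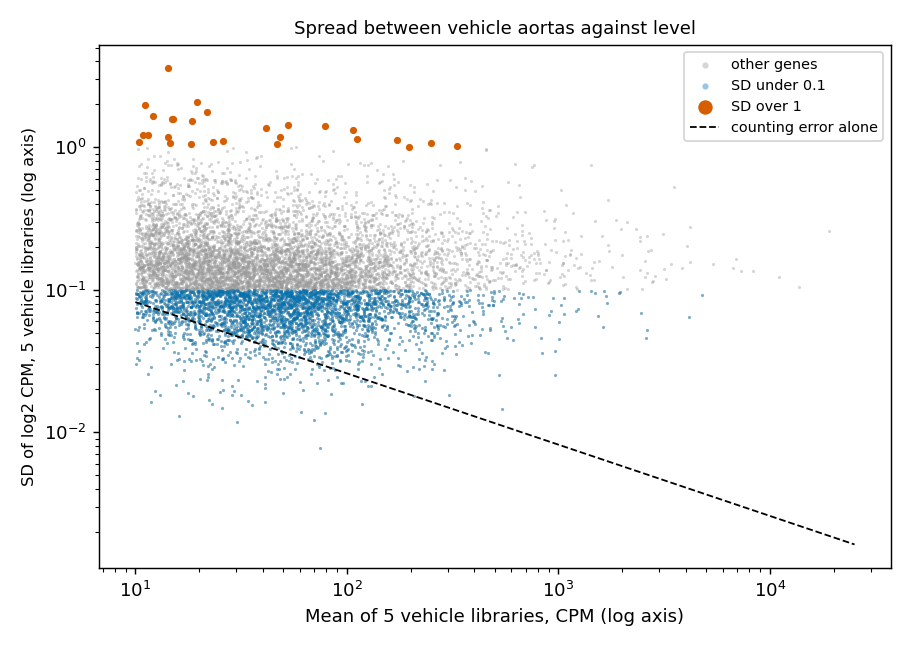
SD of log2 CPM (log axis) over the 5 vehicle libraries against mean CPM (log axis) for the 9438 genes of at least 10 CPM. The 27 genes with an SD over 1 are orange, the 3368 with an SD under 0.1 are blue, and the dashed line is the SD that counting alone would give.

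The 27 most variable genes fell into sets that were high in the same library. Of the 27, 11 were highest in vehicle 3, 8 in vehicle 4, 4 in vehicle 1, 4 in vehicle 5 and 0 in vehicle 2. The 247 genes with an SD over 0.5 were split otherwise, with 84 highest in vehicle 4, 81 in vehicle 5, 45 in vehicle 3, 22 in vehicle 1 and 15 in vehicle 2. Many of the 8 that were highest in vehicle 4 among the 27 were genes of sympathetic nerves. Dbh, the enzyme that makes noradrenaline (chr2:27020551-27038922 in mm9), held 0, 1.22, 2.36, 63.2 and 4.33 CPM in vehicle 1 to 5, and Slc6a2, the noradrenaline transporter, 2.15, 3.22, 4.48, 82.1 and 6.04 CPM. Both were high in vehicle 4 alone. Ngfr, a neurotrophin receptor, had 1.32, 2.14, 2.92, 45.2 and 4.14 CPM, and Stmn2, a neuronal tubulin regulator, 6.46, 8.46, 5.32, 42.2 and 8.6 CPM. All of these were far higher in vehicle 4 than in the other 4 libraries. The sympathetic neuron list (8 of 12 members expressed) summed to 2.94, 7.09, 7.94, 144 and 14.6 RPKM in vehicle 1 to 5.

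Vehicle 3 was highest for another set. Mt2, a metallothionein that binds zinc and copper, held 33.4, 32.7, 304, 66.8 and 101 CPM in vehicle 1 to 5, and Mt1, its neighbour on chromosome 8, 88.2, 77.9, 408, 155 and 253 CPM. Serpina3n, an acute-phase protease inhibitor, had 29, 23.8, 141, 30.5 and 17.1 CPM, Hp, which encodes haptoglobin, 162, 112, 662, 370.3 and 349 CPM, and Socs3, a feedback inhibitor of cytokine signalling, 7.75, 7.44, 41.6, 8.28 and 7.98 CPM. Vehicle 3 was far above the other 4 libraries for Serpina3n and Socs3, while vehicle 4 and 5 were also above vehicle 1 and 2 for Hp and for both metallothioneins. Prg4, a lubricating proteoglycan, had 4.4, 3.26, 53.2, 7.27 and 7.03 CPM and Myh6, the cardiac alpha myosin, 4.37, 6.65, 27, 13.1 and 3.28 CPM.

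Both metallothionein genes are classic targets of the metal-responsive transcription factor MTF1, whose binding elements share the core TGCACNC or TGCGCNC. Their promoter windows, from 250 bases before to 50 after the start in RefSeq on GRCm38.p6, are shown because both genes vary together between vehicle aortas. Both windows lie on the plus strand, at chr8:94178839-94179138 for Mt1 and chr8:94172368-94172667 for Mt2, and capitals mark matches of the core on either strand.
Mt1: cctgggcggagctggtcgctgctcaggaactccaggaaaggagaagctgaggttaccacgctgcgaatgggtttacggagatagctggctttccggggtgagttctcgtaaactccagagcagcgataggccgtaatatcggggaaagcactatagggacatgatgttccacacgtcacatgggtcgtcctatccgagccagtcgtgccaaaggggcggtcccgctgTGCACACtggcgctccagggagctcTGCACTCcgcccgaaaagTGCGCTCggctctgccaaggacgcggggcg
Mt2: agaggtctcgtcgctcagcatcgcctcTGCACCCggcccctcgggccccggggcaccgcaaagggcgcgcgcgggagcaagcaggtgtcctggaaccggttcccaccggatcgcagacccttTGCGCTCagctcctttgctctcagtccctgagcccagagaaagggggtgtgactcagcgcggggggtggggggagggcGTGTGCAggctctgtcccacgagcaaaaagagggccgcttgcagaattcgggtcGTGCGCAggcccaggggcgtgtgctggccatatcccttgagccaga

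The Mt1 window holds 3 matches and the Mt2 window 4, none of which overlap. Of 32851 promoter windows of this length, 25.7% hold at least 1 match and 1.97% at least 3. A match is a description of letters and not of binding.

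Blood and immune genes formed further sets. Haemoglobin genes were low in vehicle 1 and 2 and high in vehicle 3, with 30.1, 14.5, 151, 88 and 109.5 CPM for Hbb-b1 and 19.9, 9.54, 98.5, 59.9 and 76.3 CPM for Hba-a1 in vehicle 1 to 5; near-identical copies make the split between Hbb-b1 and Hbb-b2 and between Hba-a1 and Hba-a2 uncertain. The erythrocyte list summed to 80.6, 38.9, 425, 239 and 313 RPKM. H2-Aa, a class II antigen-presenting molecule, held 55.3, 9.21, 14.5, 37.4 and 12.7 CPM and was high in vehicle 1 and 4, as were H2-Eb1 and H2-Ab1. Retnla, a secreted protein of alternatively activated macrophages, held 77.9, 5.03, 3.76, 16.3 and 6.37 CPM and stood out in vehicle 1. The macrophage list summed to 55, 41.4, 50.7, 94.7 and 55.3 RPKM, highest in vehicle 4.

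Lipid genes and a glucocorticoid-induced gene were high in vehicle 4 and 5. Thrsp, a lipogenic regulator, held 134, 90.4, 49.4, 299 and 293 CPM in vehicle 1 to 5, and Dgat2, which makes triglyceride, 223, 155, 69.6, 372 and 436 CPM. Fkbp5, a glucocorticoid-induced immunophilin, held 43.6, 46, 57.7, 189.9 and 223 CPM. All 3 were higher in vehicle 4 and 5 than in the other libraries. The glucocorticoid response list, which holds Fkbp5, Mt1 and Mt2 among its 13 members, summed to 364, 442, 1144, 672 and 813 RPKM and was highest in vehicle 3. The brown adipocyte list (9 of 11 expressed) summed to 585, 360.1, 579, 731 and 1340.3 RPKM and the general adipocyte list (12 of 12) to 1177, 1053, 1185, 2335 and 2125 RPKM, the first highest in vehicle 5 and the second in vehicle 4. Ucp1, the uncoupling protein of brown fat, held 274, 165, 387, 444 and 996 CPM in vehicle 1 to 5.

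Many of these genes were uneven in the drug-treated libraries as well. Of the 27, 17 also had an SD over 1 within the celecoxib libraries, where 0.678% of the 9438 genes did, and 12 within the rofecoxib libraries, where 0.223% did. There were 8 that did so in both and 6 in neither. Dbh, Slc6a2 and Ngfr reached the floor of 10 CPM only through vehicle 4, and Socs3 and Prg4 only through vehicle 3. The shares over all 9438 genes are not matched for level, so they are not a matched background for the 27. Dbh, with an SD of 4.79 in celecoxib, 5.09 in rofecoxib and 3.57 in vehicle, held 0, 23.4, 0.0985, 159 and 0.713 CPM in celecoxib 1 to 5 and 0.161, 0, 45.2, 0.0321 and 94.6 CPM in rofecoxib 1 to 5. Mt2 held 1891, 40.5, 258, 71.5 and 33.4 CPM in celecoxib 1 to 5, where celecoxib 1 was far above the others, and 33, 47.7, 31.2, 25.6 and 86.1 CPM in rofecoxib 1 to 5. For Socs3 the SD was 1.09 in celecoxib, 0.31 in rofecoxib and 1.07 in vehicle. Across the 9438 genes, the SDs of 2 groups had a Spearman correlation of 0.546 between celecoxib and vehicle and 0.548 between rofecoxib and vehicle, a description over genes that share level and counting error.

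**Figure D5:**
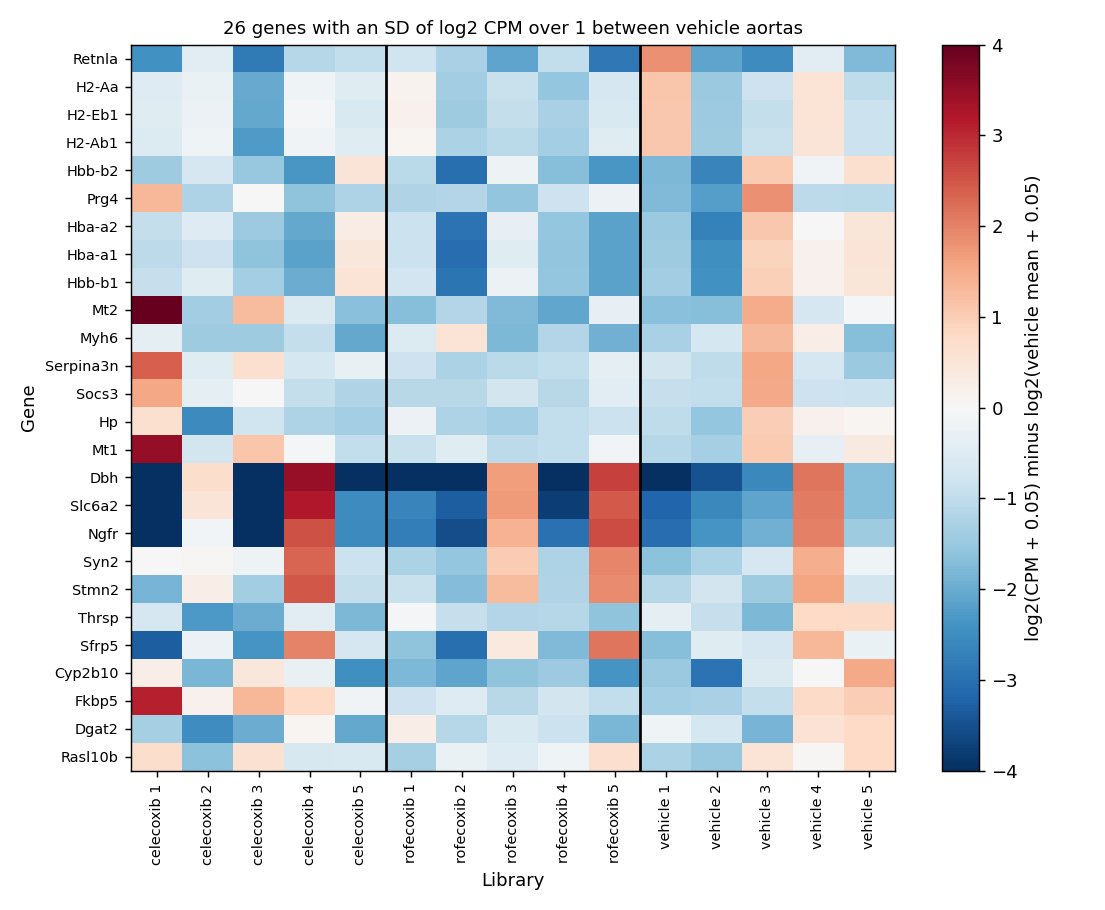
Colour gives log2(CPM + 0.05) minus log2(vehicle mean + 0.05) for 26 of the 27 genes with an SD over 1 between vehicle aortas (rows), in the 5 celecoxib, 5 rofecoxib and 5 vehicle libraries (columns). Nerve genes are red in vehicle 4 and also in some libraries of both drug groups, and Mt1 and Mt2 are reddest in celecoxib 1.

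At the other end, 3368 of the 9438 genes (35.7%) had an SD under 0.1 in vehicle. In celecoxib 2760 had it and in rofecoxib 5498, and 1382 had it in all 3 groups. The 20 genes of smallest SD had a median SD of 0.0158 in vehicle, but 0.0913 in celecoxib and 0.0697 in rofecoxib. Of the 20, 17 had a CV below that of counting alone, against 338 (3.58%) of the 9438 genes. These 20 were chosen on the vehicle values, so their small vehicle spread is part of the choice. Rpl7, a ribosomal protein gene, was one of them, at 549.6, 539, 545, 536 and 539 CPM in vehicle 1 to 5. Common reference genes differed in their spread. Actb had an SD of 0.14, Ppia of 0.14 and Rplp0 of 0.09 on the log2 scale, the 3 reference genes of highest CPM. Gapdh, named after its value was seen, had 0.22.

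Set against the drug-treated aortas, no gene passed the threshold in the test of edgeR's quasi-likelihood method with Benjamini-Hochberg adjustment over 15134 genes. It called 0 genes (0%) for the mean of celecoxib and rofecoxib minus vehicle, and the smallest adjusted p was 0.202. DESeq2 on the same counts called 82 genes, 9 higher and 73 lower in the drug-treated aortas, among them 3 receptors, 1 channel and 0 matrix genes, and limma-voom called 0. Without vehicle 2, edgeR called 2 genes, both lower in the drug-treated aortas. Without adjustment, 1356 genes (8.96%) had a p under 0.05, of which 412 were higher and 944 lower in the drug-treated aortas, and there were 790 without vehicle 5. Of the tested receptor genes 23 of 226 (10.2%) were under 0.05 unadjusted, of the channels 9 of 154 (5.84%) and of the matrix genes 10 of 234 (4.27%), beside 8.96% of all genes tested. These shares are near or below the background.

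Outside the families, the share was above the background for lists of respiratory and fat genes. Of the nuclear oxidative phosphorylation genes, which encode subunits of the respiratory chain, 67 of 79 were under 0.05 unadjusted and 76 of 79 were lower in the drug-treated aortas, with a median log2 difference of -0.28. Summed, this list ran 3766 to 5265 RPKM in celecoxib, 4097 to 4766 RPKM in rofecoxib and 4714 to 6862 RPKM in vehicle. Of the brown adipocyte genes 9 of 9 were under 0.05 unadjusted, all 9 lower in the drug-treated aortas, with a median log2 difference of -1.25, against 0.0034 over all genes tested. Their summed level ran 48.1 to 519.7 RPKM in celecoxib, 182 to 439 RPKM in rofecoxib and 360.1 to 1340.3 RPKM in vehicle. Of the general adipocyte genes 8 of 12 were under 0.05 unadjusted. Without vehicle 5, the counts were 49 for oxidative phosphorylation, 5 for brown adipocyte and 2 for general adipocyte genes, and without vehicle 4 they were 55, 8 and 3. No member of these lists passed the adjusted threshold in edgeR, and the summed levels of the groups overlapped. The brown adipocyte sum moved with the oxidative phosphorylation sum, being highest in vehicle 5 for both, and the part of one in the other was not tested.

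The 5 named genes of smallest p in edgeR's fit across all genes were each lower in the drug-treated aortas, and none passed the adjusted threshold. Dhrs9, a short-chain dehydrogenase, had 0.644 ± 0.236 CPM in celecoxib, 1.54 ± 0.186 in rofecoxib and 3.92 ± 2.59 in vehicle (SD, n = 5 each), a log2 difference of -1.97 ± 0.31 (SE) with an adjusted p of 0.202 in edgeR. Anxa8, an annexin, had 2.8 ± 0.732 CPM in celecoxib, 4.12 ± 0.992 in rofecoxib and 7.98 ± 2.89 in vehicle, a difference of -1.23 ± 0.22. The histone gene Hist1h4h, whose near-identical copies make its counts uncertain, differed by -0.87 ± 0.16. Hspe1, a mitochondrial chaperonin, had 47.3 ± 2.07 CPM in celecoxib, 51.4 ± 4.19 in rofecoxib and 60.4 ± 4.7 in vehicle, a difference of -0.29 ± 0.05. Its partner Hspd1 had 121 ± 12.8 CPM in celecoxib, 142 ± 16.4 in rofecoxib and 177 ± 24 in vehicle, a difference of -0.43 ± 0.09. The adjusted p of the last 4 was 0.283.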

How the data were processed

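Gene counts of thoracic aorta were analysed for 5 vehicle, 5 celecoxib and 5 rofecoxib libraries. The authors deposited whole-number counts per gene, with mm9 coordinates. Per the submitters' processing notes, CASAVA 1.8.2, STAR 2.5.2a and mm9 were used. The counting tool, strand use and annotation are not stated there, so overlapping, antisense and near-identical genes are uncertain. Per the labels, TruSeq libraries were built from polyadenylated RNA with 13 PCR cycles over 3 days, and no day is given for a library. Deposited totals lay between 30937046 and 30967115 counts, a spread of 0.0971%. No source records a step that equalised them, so the original depth is unknown and intervals of counting error are nominal.

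TMM scaling of the library sizes used edgeR 4.0.16 (R 4.3.3) over 15 libraries. RPKM used exonic lengths from GENCODE vM21, matched for 32642 rows that hold 99.65% of the vehicle counts. A length is the union of all annotated exons of a gene, over all its transcripts. SDs of log2 CPM used a prior count of 2 over genes of at least 10 CPM. The edgeR quasi-likelihood test with robust dispersions compared the mean of both drug groups with vehicle over 15134 genes kept by filterByExpr, at an adjusted p of 0.05, without covariates. Alternatives used DESeq2 1.42.0 and limma 3.58.1. The scripts were tested on simulated data. P-values set the difference between group means against the spread between libraries, each from its own animal.

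The genes named were taken, with some left out, from the 20 most abundant in CPM and per kilobase, the 3 highest expressed members by CPM of each family or list (5 for collagens and elastic fibre proteins), the 20 most and the 20 least variable genes and the 5 of smallest p; others are said to have been named after their values were seen. The members, the 91 lists and the tests were chosen with earlier results of these data known. Values of 1 of the 27 most variable genes are not reported here.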

Additional observations from a re-analysis of the deposited data

Results flagged for a closer look

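Dixon's gap test over the 5 vehicle libraries, with a critical ratio of 0.71, was applied to the 125 genes given with values and to 32 marker and process lists. It picked out 14 genes and 3 lists. Chance flags about 1 in 20 groups, but 9 of these genes are among the 27 chosen for their spread in the same libraries and 2 more were named after their values were seen, so that rate does not apply to them and the values are a description. The other flagged genes, Kcnma1, Itpr1 and Ppia, are few among the genes examined and cannot be told from chance flags.

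Vehicle 4 stood apart for nerve genes. Dbh had 63.2 CPM there and 0 to 4.33 CPM in the other 4, Slc6a2 82.1 against 2.15 to 6.04, Ngfr 45.2 against 1.32 to 4.14, and Stmn2 42.2 against 5.32 to 8.60. Htr3a had 20.9 CPM there against 0 to 1.97 CPM, and Htr3b 6.48 against 0 to 0.755. The sympathetic neuron list summed to 144 RPKM in vehicle 4 and 2.94 to 14.6 RPKM in the others, and the macrophage list to 94.7 RPKM against 41.4 to 55.3 RPKM. Itpr1 was lowest there, at 263 CPM against 311 to 329 CPM.

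Vehicle 3 stood apart for Mt2, with 304 CPM against 32.7 to 101 CPM in the others, for Serpina3n, with 141 against 17.1 to 30.5, for Socs3, with 41.6 against 7.44 to 8.28, and for Prg4, with 53.2 against 3.26 to 7.27. Kcnma1 was also highest there, at 35.8 CPM against 21.6 to 25.5 CPM, and Ppia lowest, at 566 CPM against 685 to 709 CPM.

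Vehicle 1 stood apart for Retnla, with 77.9 CPM against 3.76 to 16.3 CPM, and its immediate early response list was lowest, at 388 RPKM summed against 469 to 492 RPKM.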

How the results depend on the processing

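Depth before deposition is unknown, 5 animals limit every spread, and the labels assign no library to a construction day. The number of genes with an SD over 1 depended on the floor on the mean, with 49 at 5 CPM and 14 at 20 CPM, against 27 at 10 CPM. Of these, 36 and 7 also exceeded 1 within celecoxib, and 30 and 3 within rofecoxib. These floors were chosen for the overlaps after seeing the data, as were the alternatives for the counts of fat and respiratory genes. Without vehicle 4, the overlap with rofecoxib was 6. Leaving out each vehicle library in turn gave 24 to 34 variable genes, 14 to 21 of them uneven in celecoxib and 6 to 15 in rofecoxib, 3241 to 4469 stable genes and 12893 to 12945 expressed genes. Expressed receptors then numbered 187 to 189, channels 108 to 114 and matrix genes 212 to 213, and 19 to 20 of the 20 most abundant genes were shared. Against the drug-treated aortas, DESeq2 called 82 genes where edgeR called 0, and the cause was not tested. Leaving out 1 library of the 15 at a time gave 0 to 2 calls, the 2 without vehicle 2. Genes at an unadjusted p under 0.05 fell to 790 without vehicle 5 and 929 without vehicle 4, against 1356. With the replicate number as a block, edgeR called 0 genes. Same-numbered libraries had correlated deviations from -0.721 to 0.775, and own numbers correlated best in 1 of 5 libraries of each drug. The labels state no pairing of animals by number, and these values neither show nor exclude it. Direction was compared only for the 5 named genes of smallest p, chosen on the same comparison, and none of them reversed under these settings.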
